A study of Mus musculus with 12 samples.

Results

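Autophagy is the process by which a cell wraps part of its contents in a double membrane, the autophagosome, and delivers it to the lysosome for breakdown. A kinase complex around ULK1 starts it, a lipid kinase complex marks the membrane with phosphatidylinositol 3-phosphate (PI3P), and ubiquitin-like conjugation systems attach small proteins of the LC3 and GABARAP families to the growing membrane. Cargo receptors hold cargo to those proteins. In fat cells the process is known to take part in differentiation and in the turnover of mitochondria and lipid.

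The genes described here are the core machinery and receptors of autophagy, chosen by name: symbols that begin with Atg and a digit, Gabarap or Map1lc3, the ULK and WIPI genes, and a named set of further genes. The rule matched 42 of the 18194 genes with a single symbol on the array. Of these, 41 passed the filter on dim signals and were tested, among 12136 genes in all. Atg9b did not pass, and Optn, which the rule also names, was not analysed here.

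The data come from 12 oligonucleotide arrays (1 colour, 1 array per sample). The cells were 3T3-L1 adipocytes, a mouse fibroblast line turned into fat cells with insulin, dexamethasone and IBMX. All cells were used at days 8 to 10 after differentiation. Serum had been withheld from them for 12 h, with albumin given at 0.2%. The DMSO cells were thus without serum too, and the part of serum withdrawal in the signals was not tested. The 4 groups of 3 arrays received DMSO, the solvent, or 5 µM of the plant alkaloid berberine for 3, 6 or 12 h, and the question in the labels is how berberine changes gene expression. The labels do not say how long the DMSO cells were incubated, so time in culture and berberine cannot be told apart in comparisons with DMSO, which all share the same 3 DMSO arrays. The labels do not name separate cultures, so p-values here reflect no more than how far arrays of the same group scatter, and that scatter may be technical. With 3 arrays per group, the estimate of that scatter was shared over the 4 groups and drew on other genes.

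Adipocyte genes were bright, with mean log2 signals in DMSO cells of 15.20 for Adipoq, the adiponectin gene, and 15.62 for Fabp4, a fatty acid carrier. Of 6 macrophage markers, 3 passed the filter, with a summed linear signal of 242 to 402 per array, and Adgre1, Ptprc and Itgam did not. Fibroblast and preadipocyte markers were also present (8 of 10 tested). Their summed signal was 81030 to 93110 with DMSO and 92450 to 98500, 95360 to 101700 and 94290 to 102500 after 3, 6 and 12 h of berberine. Of their 8 genes, 3 rose and 2 fell at 6 h, and 2 rose and 2 fell at 12 h (62.5% and 50%, against 14.2% and 28.2% of all genes). Of 9 tested adipocyte markers, 1 fell at 3 h, 4 rose and 3 fell at 6 h, and 1 rose and 5 fell at 12 h (11.1%, 77.8% and 66.7%, against 1.90%, 14.2% and 28.2% of all genes). Those that fell at 12 h were Cidec (-1.44, limma adjusted p = 1.62e-10) and the lipase genes Lipe (-0.88, 7.09e-07) and Pnpla2 (-0.36, 0.000466), with Cebpa (-0.59, 1.4e-05) and the glucose transporter gene Slc2a4 (-0.31, 0.0396), while Lpl rose by 0.32 (0.0153). Adipoq and Fabp4 rose by 0.33 and 0.29 at 6 h (0.0325 and 0.023) and had changes of 0.25 and 0.21 at 12 h (0.0736 and 0.0604). The summed signal of all 9, to which the brightest genes add most, was 145000 to 184500 with DMSO and 168800 to 188800, 179800 to 196100 and 162800 to 176800 at 3, 6 and 12 h. The part of these marker changes in the results below was not tested. Array pairs within groups correlated at 0.910 to 0.924 over probe sets and pairs between groups at 0.907 to 0.923. In whole-culture RNA, fewer cells of a type and less RNA per cell cannot be told apart.

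With berberine, 18 of 41 autophagy genes passed the test against DMSO at some time (43.9%, against 30.5% of all genes tested). These changes went in both directions and were small. Gabarapl1, of the GABARAP family, rose to 1.83-fold at 12 h, the largest change among the autophagy genes that passed the test. In the initiation complex 4 of 6 genes fell at 6 h, against 6.98% of all genes tested. The falls of Ulk1 and Atg13 did not pass the test in every alternative analysis. Of the lipid kinase genes, Pik3r4 fell and Uvrag rose at 6 and 12 h, Pik3c3 fell at 6 h and Atg14 rose at 12 h. Becn1, Atg5 and Atg7, which code for much-studied parts of the core, did not pass the test at any time.

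A gene was called where limma's test gave an adjusted p under 0.05 over all genes tested (Benjamini-Hochberg). At 3 h 1 of 41 autophagy genes was called, and it fell (2.44%, against 1.90% of all genes tested, 1.09% higher and 0.816% lower). That count was 0 without DMSO replicate 1 or without the intensity trend of the variance model. At 6 h 8 were called, 2 higher and 6 lower (19.5%, against 14.2%, of which 7.24% higher and 6.98% lower). At 12 h 15 were called, 8 higher and 7 lower (36.6%, against 28.2%, of which 13.7% higher and 14.6% lower), but 9 without DMSO replicate 3. In all, 18 genes were called against DMSO at some time (43.9%, against 30.5%), and 5 of them at both 6 and 12 h, each in the same direction. Groups did not overlap with DMSO in 11, 17 and 21 of the 41 genes at 3, 6 and 12 h, or 26.8%, 41.5% and 51.2%, against 19.0%, 29.9% and 39.4% of all genes. Median log2 changes were -0.04, -0.09 and -0.01, beside 0.02, 0.01 and -0.01 over all genes. Medians near 0 over genes that moved both ways do not describe the size of single changes, which are given by gene below. Called changes ran from 1.14-fold to 1.83-fold. By the moderated F test over all 4 groups 14 of 41 were called (34.1%, against 25.1%), or 9 without replicate 1 of the 12 h group.

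**Figure D1:**
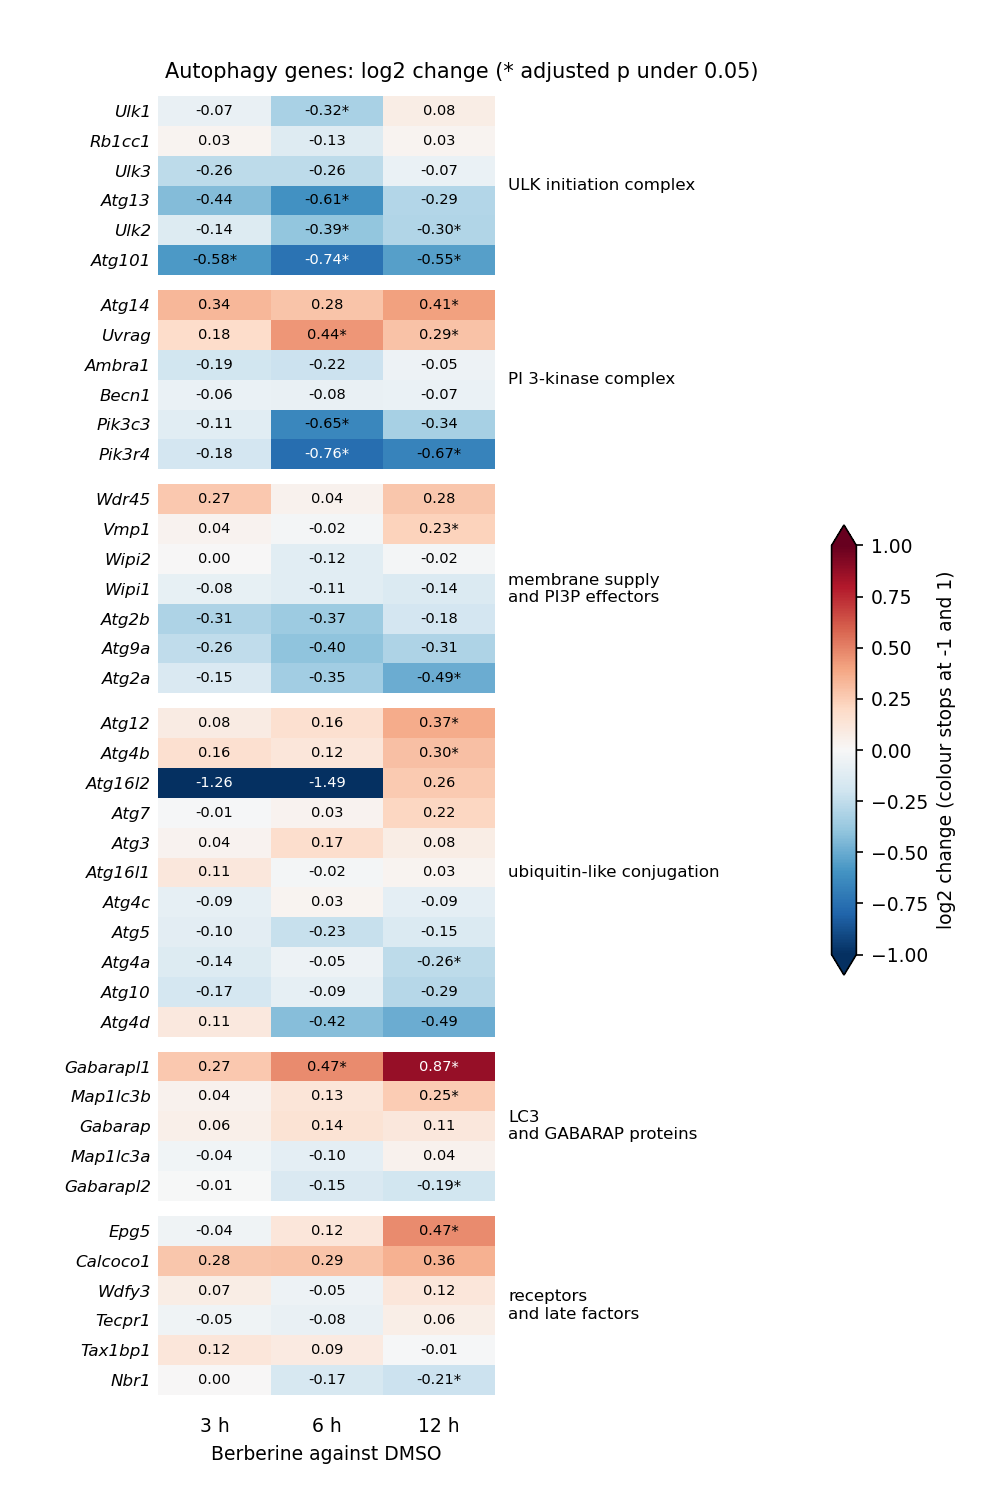
Log2 change of each of the 41 tested autophagy genes after 3, 6 and 12 h of berberine against DMSO, with genes in rows by role and colour for the size of the change; asterisks mark an adjusted p under 0.05 by limma. Asterisks on falls gather in the upper rows (initiation and lipid kinase complexes) at 6 h, and Gabarapl1 has the highest value, 0.87 at 12 h.

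**Figure D2:**
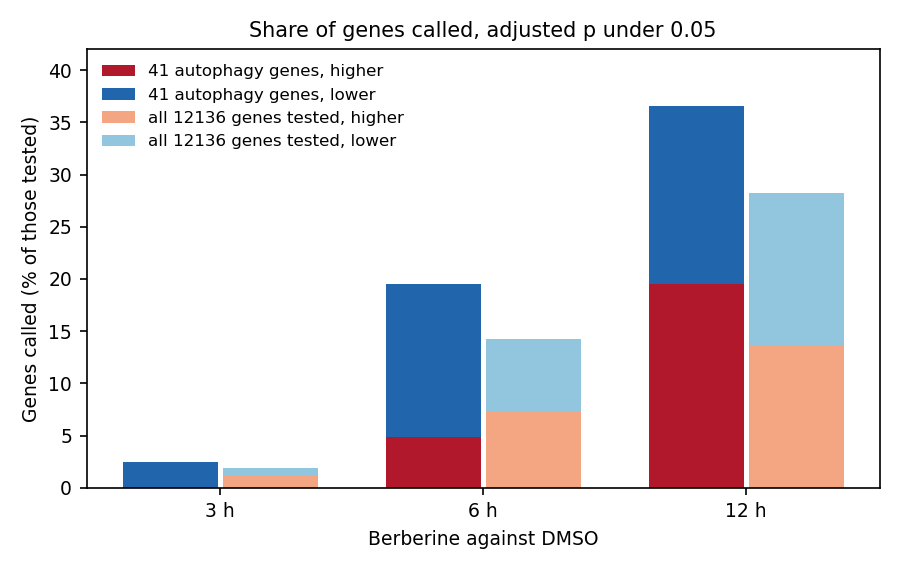
Percent of genes called higher (red shades) and lower (blue shades) than with DMSO at each time, for the 41 autophagy genes (dark) and all 12136 genes tested (pale). Dark bars reach 2.44%, 19.5% and 36.6% and pale bars 1.90%, 14.2% and 28.2%.

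The promoters of 3 of these genes are printed because Gabarapl1 rose most, Atg101 was the member called lower at every time, and Atg14 is the called member whose window holds a searched motif. Each runs from 250 bases before to 50 after the RefSeq gene start (build GRCm38.p6), 5′ to 3′ on the gene's strand, at chr6:129532942-129533241 (plus strand), chr15:101284051-101284350 (plus strand) and chr14:47568385-47568684 (minus strand). Capitals mark the E-box CACGTG, the core of sites bound by TFEB, a regulator of lysosomal and autophagy genes.
Gabarapl1: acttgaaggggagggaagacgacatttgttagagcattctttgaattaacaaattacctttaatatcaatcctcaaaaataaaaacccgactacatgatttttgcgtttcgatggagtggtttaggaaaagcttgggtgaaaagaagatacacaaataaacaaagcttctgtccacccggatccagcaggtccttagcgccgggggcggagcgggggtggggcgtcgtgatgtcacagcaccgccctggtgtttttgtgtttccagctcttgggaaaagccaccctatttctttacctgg
Atg101: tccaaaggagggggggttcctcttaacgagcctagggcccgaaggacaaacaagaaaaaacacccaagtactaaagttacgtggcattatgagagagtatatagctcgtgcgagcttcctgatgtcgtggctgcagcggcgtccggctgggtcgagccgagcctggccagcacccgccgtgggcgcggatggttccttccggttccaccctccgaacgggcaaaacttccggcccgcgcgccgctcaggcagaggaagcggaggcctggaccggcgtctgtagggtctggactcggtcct
Atg14: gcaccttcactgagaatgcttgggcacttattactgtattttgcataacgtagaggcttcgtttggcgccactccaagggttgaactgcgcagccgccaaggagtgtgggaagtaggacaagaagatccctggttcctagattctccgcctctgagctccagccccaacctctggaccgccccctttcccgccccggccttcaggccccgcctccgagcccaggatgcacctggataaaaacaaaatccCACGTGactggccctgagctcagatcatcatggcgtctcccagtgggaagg
In Atg14 the E-box begins at base 250 of the 300 printed. RefSeq's table held 39 promoters of 33 of the 41 tested genes. CACGTG, which reads the same on both strands, was in 4 of the 39 (10.3%, against 7.15% of the 32851 promoters of this length in the table), those of Atg14, Atg3, Atg5 and Atg7. Of these 4 genes Atg14 was called against DMSO. The longer TFEB site known as the CLEAR element, which contains CACGTG, the C/EBP-ATF element TGATGNAA and the FOXO site in the form GTAAACA were each in 0 of 39 on either strand, and in 0.326%, 3.97% and 3.65% of all promoters. Other forms of these sites were not searched, so their presence in these windows is not known. The median GC content was 60.3% in the 39 promoters and 52.7% in all, and that of Gabarapl1 was 46.3%.

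The initiation complex joins the kinases ULK1 or ULK2 with ATG13, ATG101 and the scaffold made from Rb1cc1, and it receives signals from mTORC1 and AMPK. Of the 6 genes in this group, with the related kinase gene Ulk3, 1 fell at 3 h, 4 fell at 6 h and 2 fell at 12 h, against 0.816%, 6.98% and 14.6% of all genes, and 0 rose. The group's median log2 change was -0.20, -0.36 and -0.18. Atg101, whose protein stabilises ATG13, had log2 signals of 10.89, 10.47 and 10.83 with DMSO, 10.26, 10.26 and 9.94 at 3 h, 9.87, 10.08 and 10.03 at 6 h, and 10.18, 10.13 and 10.21 at 12 h. All 9 berberine arrays lay below all 3 DMSO arrays. It fell 1.49-fold at 3 h (log2 change -0.58 ± 0.11 SE, limma adjusted p = 0.00694), 1.66-fold at 6 h (-0.74 ± 0.11, adjusted p = 0.000215) and 1.47-fold at 12 h (-0.55 ± 0.11, adjusted p = 0.000878). The call at 3 h ended without DMSO replicate 1 (adjusted p = 0.0604) and without the intensity trend (0.0818).

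Atg13 codes for the adaptor that ties the ULK kinases to the rest of the complex. It read 9.02, 9.41 and 9.05 with DMSO, 8.79, 8.69 and 8.69 at 3 h, 8.83, 8.45 and 8.38 at 6 h, and 8.95, 8.92 and 8.73 at 12 h. Every berberine array lay below the DMSO arrays, but the fall passed the test at 6 h alone (1.52-fold, -0.61 ± 0.13, limma adjusted p = 0.00585). A second, dimmer probe set changed by -0.05 at 6 h, and with the mean of both the call ended (adjusted p = 0.153). Ulk2, a kinase gene of the complex, read 9.98, 10.11 and 10.00 with DMSO, 9.91, 9.88 and 9.88 at 3 h, 9.78, 9.57 and 9.56 at 6 h, and 9.76, 9.67 and 9.77 at 12 h. It fell 1.31-fold at 6 h (-0.39 ± 0.08, adjusted p = 0.00364) and 1.23-fold at 12 h (-0.30 ± 0.08, adjusted p = 0.0101), with falls of 0.33 and 0.40 at 6 h in its other kept probe sets, which were not called.

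Ulk1, the kinase gene that gives the complex its name, was low at 6 h alone. Its log2 signals were 9.54, 9.47 and 9.67 with DMSO, 9.42, 9.65 and 9.40 at 3 h, 9.27, 9.16 and 9.29 at 6 h, and 9.73, 9.51 and 9.68 at 12 h. The 6 h arrays lay below all others. It was 1.25-fold lower at 6 h (-0.32 ± 0.10, limma adjusted p = 0.0339) and had a change of 0.08 at 12 h (adjusted p = 0.628). The call at 6 h ended without DMSO replicates 1 and 3 (adjusted p = 0.0801 and 0.128), without 6 h replicates 1, 2 and 3 (0.0589, 0.125 and 0.0549), after quantile normalization (0.0534) and without the intensity trend (0.0578). Rb1cc1 had changes of 0.03, -0.13 and 0.03 in the probe set used, and of 0.37 at 12 h in another (adjusted p = 0.0362 among probe sets). Ulk3 varied by up to 0.50 (SD, n = 3) within a group and had changes of -0.26, -0.26 and -0.07, none called.

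The lipid kinase complex is built on the catalytic subunit VPS34, made from Pik3c3, with its regulatory subunit from Pik3r4 and Beclin 1 from Becn1. ATG14 directs it to the forming autophagosome and UVRAG to later endosomal steps, and AMBRA1 is a regulator of Beclin 1. Of these 6 genes, 0 were called at 3 h, 1 rose and 2 fell at 6 h, and 2 rose and 1 fell at 12 h (against 1.90%, 14.2% and 28.2% of all genes at the 3 times). Pik3r4 read 8.64, 9.07 and 8.52 with DMSO, 8.36, 8.80 and 8.52 at 3 h, 7.92, 7.95 and 8.08 at 6 h, and 8.22, 8.10 and 7.89 at 12 h. The 6 h and 12 h arrays lay below all DMSO and 3 h arrays. It fell 1.69-fold at 6 h (-0.76 ± 0.16, limma adjusted p = 0.00361) and 1.59-fold at 12 h (-0.67 ± 0.16, adjusted p = 0.00365). Its single probe set is of the _s_at kind, whose probes can match more than 1 transcript. Pik3c3 read 9.31, 9.66 and 9.42 with DMSO, 9.38, 9.37 and 9.31 at 3 h, 9.17, 8.79 and 8.47 at 6 h, and 9.11, 8.96 and 9.32 at 12 h. It fell 1.57-fold at 6 h (-0.65 ± 0.15, adjusted p = 0.00641), where its spread was widest (SD 0.35, n = 3). At 12 h its change of -0.34 missed the threshold (adjusted p = 0.101), but passed without 6 h replicate 1 (0.0486), an array that enters through the shared estimate of spread.

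Uvrag and Atg14 went the other way. Uvrag read 9.49, 9.53 and 9.48 with DMSO, 9.76, 9.45 and 9.83 at 3 h, 9.98, 9.98 and 9.87 at 6 h, and 9.94, 9.63 and 9.80 at 12 h. It rose 1.36-fold at 6 h (0.44 ± 0.10, limma adjusted p = 0.00791) and 1.22-fold at 12 h (0.29 ± 0.10, adjusted p = 0.0428). The 12 h call ended without DMSO replicates 1, 2 and 3 (0.101, 0.0661 and 0.0978), without 12 h replicates 1 and 3 (0.182 and 0.0935), without 6 h replicate 2 (0.0506) and under 4 other settings, the widest 0.0814 without the intensity trend. Atg14 read 8.79, 8.94 and 8.79 with DMSO, 9.21, 9.15 and 9.16 at 3 h, 9.35, 8.99 and 9.03 at 6 h, and 9.34, 9.16 and 9.25 at 12 h. All 9 berberine arrays lay above the DMSO arrays, and the rise passed the test at 12 h (1.33-fold, 0.41 ± 0.11, adjusted p = 0.00749). At 6 h its change of 0.28 had an adjusted p of 0.0867, or 0.0489 after quantile normalization.

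Becn1 read 11.92, 11.87 and 11.81 with DMSO and between 11.76 and 11.85 on the 9 berberine arrays. Its changes were -0.06, -0.08 and -0.07, each with an SE of 0.06, and none was called (limma adjusted p = 0.696, 0.435 and 0.416). These values come from its brightest probe set, and 4 others were kept. With the mean of all 5, Becn1 was 0.52 higher at 6 h than at 3 h (adjusted p = 0.0379), as both _x_at probe sets, which can bind other transcripts, had changes of -1.12 and -1.21 at 3 h. Ambra1 had changes of -0.19, -0.22 and -0.05, none called.

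**Figure D3:**
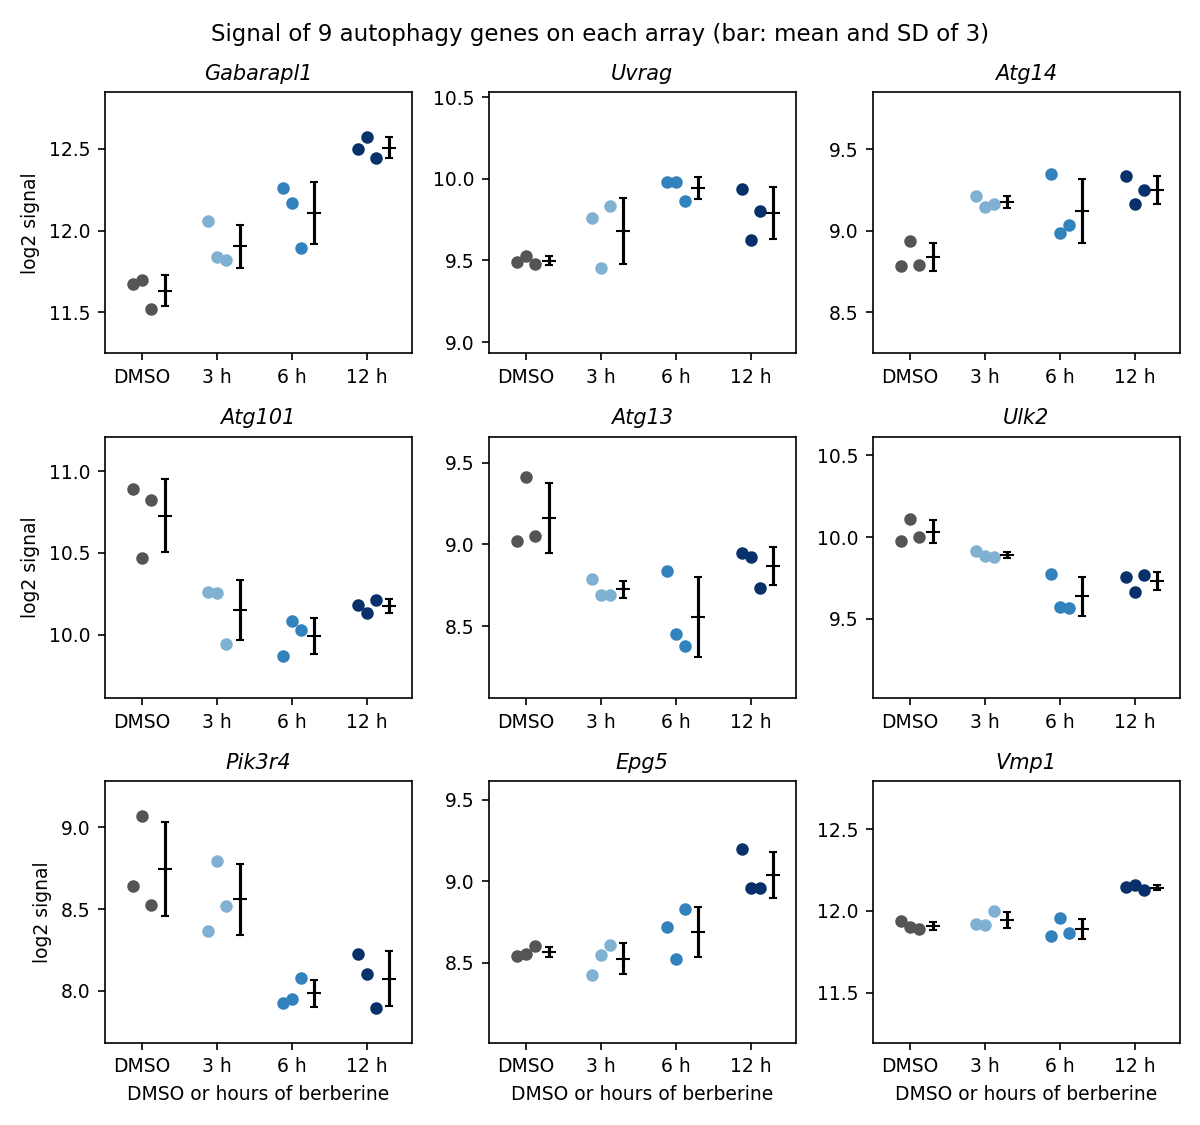
Log2 signal on each array for 9 autophagy genes, with DMSO and hours of berberine on the x axis, 3 points per group, the bar giving mean and SD, and the same span of 1.6 log2 units on every y axis. Gabarapl1 climbs from 11.63 to 12.51 in group means, Atg101 lies below DMSO at each time, and Pik3r4 drops between 3 h and 6 h.

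Membrane for the autophagosome is brought by vesicles with the lipid scramblase ATG9A and by the lipid transfer proteins ATG2A and ATG2B, while the WIPI proteins and WDR45 bind PI3P and VMP1 is a scramblase of the endoplasmic reticulum. Of the 7 tested genes of this group, 0 were called at 3 h and at 6 h, and 1 rose and 1 fell at 12 h (against 1.90%, 14.2% and 28.2% of all genes at the 3 times). Vmp1 read 11.94, 11.90 and 11.89 with DMSO, 11.92, 11.91 and 12.00 at 3 h, 11.84, 11.96 and 11.87 at 6 h, and 12.14, 12.16 and 12.13 at 12 h. The 12 h arrays lay above all others, a rise of 1.18-fold (0.23 ± 0.06, limma adjusted p = 0.00411), with a change of 0.41 in its other kept probe set (adjusted p = 0.0706 among probe sets). Atg2a read 7.80, 7.95 and 7.99 with DMSO, 7.85, 7.56 and 7.87 at 3 h, 7.60, 7.29 and 7.81 at 6 h, and 7.18, 7.49 and 7.58 at 12 h, 1.41-fold lower (-0.49 ± 0.18, adjusted p = 0.048). That call was lost in 10 of 19 alternatives. They were quantile normalization (0.055), no filter (0.0897), and the fits without DMSO replicates 1, 2 and 3 (0.0691, 0.111 and 0.125), 12 h replicates 1 and 2 (0.178 and 0.0723), 3 h replicates 1 and 3 (0.0577 and 0.0561) and 6 h replicate 1 (0.0541). Atg2b and Atg9a had values below those of DMSO at every time (-0.31, -0.37 and -0.18 for Atg2b; -0.26, -0.40 and -0.31 for Atg9a), none called.

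Among PI3P readers, Wipi1 had changes of -0.08, -0.11 and -0.14 in its brightest probe set, none called. At 12 h it was called lower in 2 of its other kept probe sets (-0.86 and -0.55, limma adjusted p = 0.0349 and 0.0201 among probe sets). The second of these was also called lower at 6 h (-0.59, adjusted p = 0.027 among probe sets). The brightest other kept probe set changed by 0.07 at 6 h and 0.03 at 12 h (0.783 and 0.891). Wipi2 had changes of 0.00, -0.12 and -0.02. Wdr45 had changes of 0.27, 0.04 and 0.28, none called.

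In the conjugation systems ATG7 is the activating enzyme, ATG3 and ATG10 the transfer enzymes, ATG12 the ubiquitin-like protein joined to ATG5, ATG16L1 the partner that places them on the membrane, and the ATG4 proteases trim and release LC3. Of 11 genes 0 were called at 3 h and at 6 h, and 2 rose and 1 fell at 12 h (against 1.90%, 14.2% and 28.2% of all genes at the 3 times). Atg12 read 10.74, 10.60 and 10.78 with DMSO, 10.72, 10.82 and 10.84 at 3 h, 10.93, 10.84 and 10.82 at 6 h, and 11.02, 11.10 and 11.11 at 12 h. The 12 h arrays lay above all others, and Atg12 rose 1.29-fold (0.37 ± 0.07, limma adjusted p = 0.000677) with a change of 0.33 in a dimmer probe set (adjusted p = 0.184 among probe sets).

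Atg5 read 9.50, 9.34 and 9.50 with DMSO, 9.43, 9.29 and 9.30 at 3 h, 9.18, 9.20 and 9.26 at 6 h, and 9.25, 9.23 and 9.41 at 12 h. Its changes of -0.10, -0.23 and -0.15 were not called (limma adjusted p = 0.684, 0.101 and 0.269). Atg7 read 9.16, 9.17 and 9.13 with DMSO, 9.19, 9.06 and 9.18 at 3 h, 9.27, 8.99 and 9.30 at 6 h, and 9.32, 9.48 and 9.31 at 12 h. Its 12 h arrays lay above the DMSO arrays, but the change of 0.22 did not pass (adjusted p = 0.125). Atg3, Atg10, Atg16l1, Atg4c and Atg4d were not called either, with changes between -0.49 and 0.17. Atg16l2, a paralogue of Atg16l1, lay near the filter's threshold of 5.77, with values from 2.85 to 6.59, and its changes of -1.26, -1.49 and 0.26 were not called.

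The protease genes Atg4a and Atg4b were called in opposite directions at 12 h, and neither call was firm. Atg4a read 10.60, 10.55 and 10.61 with DMSO, 10.52, 10.38 and 10.45 at 3 h, 10.66, 10.59 and 10.36 at 6 h, and 10.26, 10.38 and 10.35 at 12 h (-0.26 ± 0.08, limma adjusted p = 0.0215). Without DMSO replicates 1 and 3 and 12 h replicate 1 the adjusted p was 0.0611, 0.0593 and 0.0849, and with the mean of its probe sets the change was 0.26 (0.506). The other kept probe set of Atg4a is of the _x_at kind and reached the threshold on only 3 of 12 arrays. It changed by 0.78 (adjusted p = 0.368 among probe sets). The 12 h arrays of Atg4a lay below the DMSO arrays, and those of Atg4b above them. Atg4b read 9.32, 9.32 and 9.26 with DMSO, 9.38, 9.39 and 9.61 at 3 h, 9.64, 9.29 and 9.34 at 6 h, and 9.44, 9.75 and 9.60 at 12 h (0.30 ± 0.11, adjusted p = 0.047). A second probe set of Atg4b, at or above the threshold on all 12 arrays, changed by -0.56 at 12 h (adjusted p = 0.0102 among probe sets), and the mean of both gave -0.13 (0.466). The call of Atg4b was lost in 12 further alternatives, among them the fits without DMSO replicates 1, 2 and 3 (0.0922, 0.075 and 0.118), 12 h replicates 2 and 3 (0.195 and 0.0948), 3 h replicates 1 and 2 (0.054 and 0.0556) and 6 h replicate 3 (0.0506).

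LC3 and GABARAP proteins are the ubiquitin-like tags that sit on the autophagosome and bind receptors. Of 5 genes, 0 were called at 3 h, 1 rose at 6 h, and 2 rose and 1 fell at 12 h (against 1.90%, 14.2% and 28.2% of all genes at the 3 times). Gabarapl1 read 11.68, 11.70 and 11.52 with DMSO, 12.06, 11.84 and 11.82 at 3 h, 12.26, 12.17 and 11.89 at 6 h, and 12.50, 12.57 and 12.45 at 12 h. All 9 berberine arrays lay above the DMSO arrays, and the 12 h arrays above all others. The change was 1.21-fold at 3 h (0.27 ± 0.09, limma adjusted p = 0.143), a rise of 1.39-fold at 6 h (0.47 ± 0.09, adjusted p = 0.00159) and of 1.83-fold at 12 h (0.87 ± 0.09, adjusted p = 1.11e-06). The probe set used is of the _s_at kind. A second probe set of the gene gave 0.35, 0.50 and 0.93, called at all 3 times (adjusted p = 0.0246 at 3 h among probe sets).

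Map1lc3b, the gene of LC3B, gave no single answer. The probe set used read 12.70, 12.82 and 12.53 with DMSO, 12.73, 12.70 and 12.73 at 3 h, 12.75, 12.96 and 12.71 at 6 h, and 12.93, 13.00 and 12.87 at 12 h. It was 1.19-fold higher at 12 h (0.25 ± 0.08, limma adjusted p = 0.0177, or 0.0926 without DMSO replicate 3, 0.0756 without 12 h replicate 2 and 0.0666 without the intensity trend). Its other kept probe sets changed by -0.25 (adjusted p = 0.00932 among probe sets) and -0.15 (0.328), and the mean of all 3 by -0.05 (0.693). Gabarapl2 read 11.50, 11.50 and 11.49 with DMSO, 11.46, 11.55 and 11.46 at 3 h, 11.36, 11.40 and 11.29 at 6 h, and 11.35, 11.33 and 11.25 at 12 h, 1.14-fold lower (-0.19 ± 0.06, adjusted p = 0.0253). That call ended without DMSO replicates 1 and 2 (0.069 and 0.0522), 12 h replicate 3 (0.0928) and with the mean of its probe sets (0.465). Gabarap had changes of 0.06, 0.14 and 0.11, none called. Map1lc3a had 0.04 at 12 h in the probe set used, and 0.22 in an _x_at probe set (adjusted p = 0.0118 among probe sets).

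**Figure D4:**
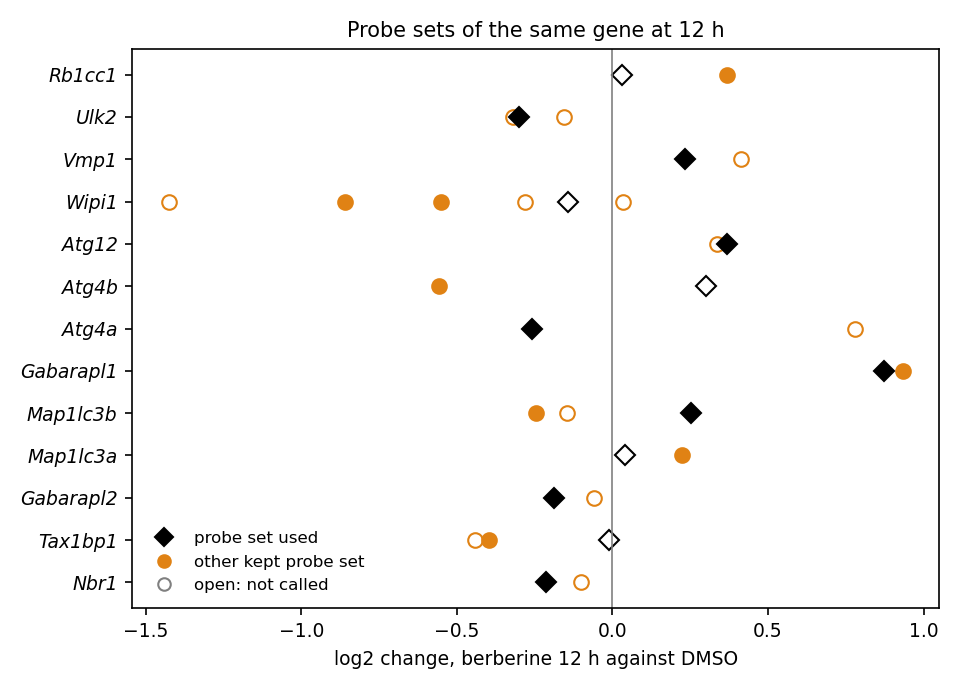
Log2 change at 12 h of berberine against DMSO in every kept probe set of 13 autophagy genes with more than 1, black diamonds for the probe set used and orange circles for the others, filled where the adjusted p over all kept probe sets was under 0.05. Of the 25 members with more than 1 kept probe set, those called at 12 h are shown, and Rb1cc1, Tax1bp1, Map1lc3a and Wipi1. The last-named were not called in the probe set used, but each was called at 12 h in another. Both Gabarapl1 probe sets lie together at 0.87 and 0.93, whereas those of Map1lc3b and Atg4b lie on both sides of 0.

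Among receptors and late factors, NBR1, TAX1BP1 and CALCOCO1 bind cargo, WDFY3 is a large scaffold for protein aggregates, and EPG5 and TECPR1 act where autophagosomes meet lysosomes. Of the 6 tested genes, 0 were called at 3 h and at 6 h, and 1 rose and 1 fell at 12 h (against 1.90%, 14.2% and 28.2% of all genes at the 3 times). Epg5 read 8.55, 8.56 and 8.60 with DMSO, 8.42, 8.55 and 8.61 at 3 h, 8.72, 8.52 and 8.83 at 6 h, and 9.20, 8.96 and 8.96 at 12 h. The 12 h arrays lay above all others, a rise of 1.39-fold (0.47 ± 0.12, limma adjusted p = 0.00515). Nbr1 read 12.32, 12.34 and 12.48 with DMSO, 12.40, 12.35 and 12.39 at 3 h, 12.20, 12.30 and 12.14 at 6 h, and 12.18, 12.05 and 12.27 at 12 h, 1.16-fold lower (-0.21 ± 0.07, adjusted p = 0.0238). The Nbr1 call ended without DMSO replicate 3 (0.103), 12 h replicates 1 and 2 (0.0509 and 0.131), the intensity trend (0.0656) or with the mean of its probe sets (0.31). Tax1bp1 had changes of 0.12, 0.09 and -0.01, but -0.40 at 12 h in another probe set (adjusted p = 0.0015 among probe sets). Calcoco1, Wdfy3 and Tecpr1 were not called, with changes from -0.08 to 0.36.

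Several genes moved between berberine times, a comparison that does not use the DMSO arrays for its means. There was no DMSO group for each time. Hours of berberine and any difference in time in culture thus cannot be told apart here either. From 3 h to 6 h 0 of 41 genes were called by limma (against 2.34% of all genes, 1.19% higher and 1.15% lower). The unadjusted p was under 0.05 in 11 of the 41, and in 1929 of all 12136 genes, a smaller share. From 6 h to 12 h 3 rose and 0 fell (7.32%, against 5.69%, of which 2.50% higher and 3.18% lower), namely Gabarapl1, Ulk1 and Vmp1. From 3 h to 12 h 4 rose and 3 fell (17.1%, against 17.7%, of which 8.01% higher and 9.71% lower), namely Gabarapl1, Vmp1, Epg5 and Atg12 up and Gabarapl2, Nbr1 and Pik3r4 down. Their number was 3 without 3 h replicate 2 or 12 h replicate 2, and 4 without 3 h replicate 1 or 3 or 12 h replicate 1. Epg5 was 0.51 ± 0.12 SE higher at 12 h than at 3 h (adjusted p = 0.00465) and Atg12 0.28 ± 0.07 higher (0.00806). Ulk1 was 0.40 ± 0.10 higher at 12 h than at 6 h (0.0226), but the adjusted p was 0.0947 without 6 h replicate 2, 0.09 and 0.074 without 12 h replicates 1 and 3, and 0.0604 without the intensity trend.

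By likeness of pattern, the 5 genes outside the autophagy set whose 4 group means correlated most with those of Gabarapl1 were Uhrf2, Psmb10, Rab21, Rhoq and Smc6. With only 4 means, 135 of 3031 candidates called by the F test had a Pearson r above 0.99. Over the 12 arrays, which share the group structure, the r of these 5 genes was 0.885, 0.841, 0.889, 0.869 and 0.940.

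Other genes of the pathway, in 3 lists of 60 genes of which 57 were tested, moved in both directions too. The lists were chosen with earlier results of these data known, so a share above that of all genes is no test of the pathway. At 3 h 4 rose and 2 fell, at 6 h 9 rose and 9 fell, and at 12 h 13 rose and 10 fell (10.5%, 31.6% and 40.4%, against 1.90%, 14.2% and 28.2% of all genes). The count was 3 and 11 at 3 and 6 h when a gene's kept probe sets were averaged, and 2 at 3 h without the intensity trend. In further receptors and selective autophagy genes, 3 of 14 rose and 3 fell at 12 h (42.9%, against 28.2% of all genes). Sqstm1, the receptor p62, had a log2 change of 0.16 at 3 h and rose by 0.44 at 6 h and 0.95 at 12 h (limma adjusted p = 0.317, 0.000404 and 2.69e-08). Stbd1, a glycogen-binding receptor, rose by 1.93 at 12 h (2.42e-07). Ncoa4, the ferritin receptor, fell by 0.77 and Bnip3, a mitochondrial receptor, by 0.72 at 12 h (3.62e-07 and 2.79e-06). Tollip, an adaptor for ubiquitinated cargo, rose by 0.35 at 6 h, but its change was 0.02 with the mean of its probe sets (0.967).

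In genes of fusion and other factors, 5 of 18 rose and 2 fell at 12 h (38.9%, against 28.2% of all genes). Trp53inp2, which codes for a partner of VMP1 and LC3, rose by 0.49 (limma adjusted p = 2.85e-05), and Trp53inp1, its relative, by 0.55 (0.000709). Stx17, the syntaxin of autophagosome fusion, fell by 0.74 in the probe set used (0.000362) and changed by 0.03 with the mean of its probe sets (0.89). Sh3glb1, whose protein binds Beclin 1 through UVRAG, rose by 0.50 (9.3e-07), or changed by -0.19 with the mean (0.0264).

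Of 25 upstream regulators 4 rose and 1 fell at 3 h, 6 rose and 6 fell at 6 h, and 5 rose and 5 fell at 12 h (20%, 48% and 40%, against 1.90%, 14.2% and 28.2% of all genes). Flcn, whose product folliculin acts on mTORC1 signalling to TFEB and TFE3, rose by 0.84 at 3 h (limma adjusted p = 0.00506, or 0.0733 without the intensity trend). Mitf, of the TFEB family, rose by 0.61 at 6 h and 0.76 at 12 h (3.95e-05 and 8.99e-07), or with adjusted p = 0.166 and 0.0588 with the mean of its probe sets. Tfeb and Tfe3, named after their values were seen, were not called at any time. Ddit4, an mTORC1 inhibitor, fell by 0.85, 0.49 and 1.03 at 3, 6 and 12 h. Its call at 6 h (0.02) ended without DMSO replicates 1 and 3 (0.118 and 0.0791), 6 h replicates 1 and 2 (0.0657 and 0.0944) or the intensity trend (0.106), and that at 3 h without the trend (0.0663). Sesn2, a stress-induced mTORC1 inhibitor, rose by 0.99 at 6 h (0.0127), a call that ended without DMSO replicate 2 (0.0563), 6 h replicate 3 (0.0729) or the trend (0.0714). The stress regulators Atf4 and Ddit3 rose at all 3 times, by 1.43 and 2.42 at 12 h (1.62e-10 and 2.23e-14). With the mean of its probe sets the 3 h call of Ddit3 ended (0.0806).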

How the data were processed

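The values are log2 signals as deposited by the authors, 1 column per array and 1 array per sample. Per the submitters' processing notes the tool was MAS5, whose version is not given in the sources used here. Every array had the same trimmed mean on the linear scale (500.0). Scanner files and detection calls were not used here.

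The threshold of 5.77 is the median log2 value of the 45037 non-control probe sets, and 25053 probe sets that reached it on 3 or more of 12 arrays were used. Genes were named by the single symbol of the platform annotation, and each was represented by its kept probe set of highest mean, one ending in _x_at only where there was no other. Of the 41 tested members 25 had more than 1 kept probe set. The test was limma's moderated test (limma 3.58.1, R 4.3.3), two-sided, from 1 model of the 4 group means on 12 arrays with 8 residual degrees of freedom and a variance prior that follows intensity. P-values were adjusted by the Benjamini-Hochberg method over the 12136 genes, or over the 25053 probe sets where the text says among probe sets. The fit was run on simulated data with independent normal noise. Recovery was required there only of changes larger than any called in a member, so it is no check on changes of the size given here. Fold changes are ratios of geometric means, and the number of arrays limits the precision.

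The members and gene lists were chosen with earlier results of these data known. Values are given in full for members called against DMSO and for Ulk1, Becn1, Map1lc3b, Gabarapl1, Atg5 and Atg7, other members by counts and ranges. Related genes named are up to 4 per list and comparison, the largest changes among those called. Alternatives were quantile normalization, no filter or a stricter one, the mean of a gene's probe sets, no intensity trend, dim values raised to the threshold, the replicate number as a block, and each array left out.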

Additional observations from a re-analysis of the deposited data

Results flagged for a closer look

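Changes of some autophagy genes differed between berberine times by limma's direct contrast of those times, with log2 differences and adjusted p over all genes. Without a DMSO group for each time, any difference in time in culture cannot be told apart from hours of berberine. The share of members called was 0% from 3 h to 6 h, 7.32% from 6 h to 12 h and 17.1% from 3 h to 12 h. Over all genes tested it was 2.34%, 5.69% and 17.7%, so the members moved about as often as genes in general. Gabarapl1 was higher at 12 h than at 6 h by 0.40 (0.012) and than at 3 h by 0.60 (0.00012). The first of these ended without 6 h replicate 3 (0.0566), 12 h replicate 2 (0.0562) or the intensity trend (0.0881). Vmp1 was higher at 12 h than at 6 h by 0.25 (0.0118, or 0.0508 without 6 h replicate 1 and 0.076 with its probe sets averaged) and than at 3 h by 0.20 (0.0187, and 0.0675 and 0.0762 without 3 h replicates 1 and 2, 0.0524 and 0.0614 without 12 h replicates 1 and 2, and 0.0937 with its probe sets averaged). Ulk1 was higher at 12 h than at 6 h by 0.40 (0.0226), a call that ended without 6 h replicate 2 (0.0947), 12 h replicates 1 and 3 (0.09 and 0.074) or the intensity trend (0.0604).

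Between 3 h and 12 h Epg5 differed by 0.51 (0.00465), Atg12 by 0.28 (0.00806), Pik3r4 by -0.49 (0.0394), Nbr1 by -0.22 (0.0319) and Gabarapl2 by -0.18 (0.0443). Without single arrays the adjusted p of Pik3r4 rose to 0.18 and 0.0772 (3 h replicates 2 and 3) and 0.0777 and 0.139 (12 h replicates 2 and 3). It was also above the threshold after quantile normalization (0.0678), with no filter (0.0615), with probe sets averaged (0.0519), with no intensity trend (0.0713) and with dim values raised (0.0587), so that 9 of 19 alternatives ended this call. For Nbr1 it rose to 0.0931, 0.0606 and 0.0847 (3 h replicates 1, 2 and 3) and 0.067 and 0.165 (12 h replicates 1 and 2), and it was 0.759 with probe sets averaged and 0.0867 with no intensity trend. For Gabarapl2 it rose to 0.0673, 0.175 and 0.0681 (3 h replicates 1, 2 and 3), 0.0605, 0.0822 and 0.141 (12 h replicates 1, 2 and 3), 0.0562 (DMSO replicate 1) and 0.0501 (6 h replicate 1), and it was 0.0574 with no filter, 0.169 with probe sets averaged and 0.0601 with no intensity trend.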

How the results depend on the processing

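Of 24 calls of autophagy genes against DMSO, 14 kept their direction and call in all 19 alternatives, among them Gabarapl1, Atg101, Ulk2 and Uvrag at 6 h, and 3 changed sign in some setting. Atg101, Atg14, Epg5, Pik3c3, Pik3r4 and Uvrag, with calls among the 14, each had a single kept probe set. Averaging probe sets could not change their log2 changes, so for them it was no check on the choice of probe set. Of 10 calls between berberine times 3 held in all, those of Epg5, Atg12 and Gabarapl1 from 3 h to 12 h. When the kept probe sets of a gene were averaged the log2 change turned to 0.26 for Atg4a, -0.13 for Atg4b and -0.046 for Map1lc3b at 12 h, to 0.52 and 0.37 for Becn1 at 6 and 12 h against 3 h, to 0.14 and 0.12 for Mtor, -0.11 and -0.19 for Sh3glb1 and 0.026 and 0.032 for Stx17 at 6 and 12 h, and to 1.49 for Plekhm1 and -0.12 for Tollip at 12 h. The probe sets of these genes differ in direction, as shown above for Atg4b and Map1lc3b, and the cause was not tested. For Atg4a the other probe set was dim, with a mean log2 signal of 5.52.

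With that mean, the count of members called was 1 from 3 h to 6 h (main 0) and 4 from 3 h to 12 h (main 7), and 3 and 11 related genes were called at 3 and 6 h. Without the intensity trend it was 0 at 3 h, 1 from 6 h to 12 h, 4 from 3 h to 12 h and 7 by the F test, with 2 related genes at 3 h. With single arrays left out the counts ran from 0 to 1 at 3 h, 7 to 9 at 6 h, 9 to 16 at 12 h, 0 to 1 from 3 h to 6 h, 2 to 3 from 6 h to 12 h, 3 to 8 from 3 h to 12 h and 9 to 13 by the F test, and for related genes 4 to 6, 15 to 19 and 19 to 25. The cause was not tested.

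Same-numbered arrays of different groups did not deviate together (correlations of -0.0368 to 0.0301), so the numbers are not taken to pair them. With the replicate number as a block 1, 8 and 15 members were called at 3, 6 and 12 h, as without it, and 16 by the F test. The block ended the call of Atg4b at 12 h (adjusted p = 0.0631), of Mtor at 6 h (0.0552) and of Ncoa4 at 3 h (0.0568), and made those of Map1lc3b from 3 h to 12 h (0.0325) and Rtn3 at 6 h (0.0334).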
